A study of Xenopus laevis with 4 samples.

Results

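The genes described here are the keratins, claudins, Grainyhead-like factors, desmosomal plaque genes and epcam of Xenopus laevis, read in ventral gastrula tissue with and without a knockdown of sox8. They were chosen by a rule on the symbol: every row of the count table whose name begins with krt, cldn, grhl, tp63, itln, dsp, pkp or epcam, with its number and its L or S suffix. That choice was made with earlier results of these data known. The rule found 43 of the 21531 genes of the table, of which 13 are keratins, 14 claudins, 6 grhl genes, 8 dsp or pkp genes and 2 epcam genes. X. laevis is an allotetraploid, and L and S name the copies (homeologs) of a gene on its 2 subgenomes. The 43 genes hold 18 homeolog pairs and 7 genes whose partner has no row. In the RefSeq annotation of assembly v10.1, 129 symbols fit the rule and 42 of the 43 genes were among them (cldn11.S was not matched). The other symbols, tp63 and the itln genes included, had no row in the count table and could not be analysed here. That table leaves out genes with a mean under 5 reads.

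The table holds 2 sox8 CRISPR libraries and 2 control libraries of the dissected tissue, labelled ventral mesoderm. In the sox8 CRISPR group, each injected ventral blastomere received 800 pg of mRNA for Cas7-11, an RNA-cutting CRISPR enzyme, with 160 pg of guides against sox8 mRNA. The labels give the control group the Cas7-11 mRNA without guides, so the nuclease is common to all libraries. The knockdown is of RNA, is confined to the progeny of the injected cells and leaves the gene intact. The labels give each library its own embryo number, but whether the embryos came from separate clutches is not stated in the sources used here, so p-values measure the spread between these libraries only.

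Keratins of types I and II pair into the intermediate filaments of epithelial cells. In Xenopus, krt8 and krt18 are simple-epithelial keratins that are present from the early embryo onwards and also mark notochord and endodermal epithelia, whereas krt12.4 is the classical epidermal keratin used to mark non-neural ectoderm. Claudins are the membrane proteins that seal tight junctions. Desmoplakin (dsp) and the plakophilins (pkp) link keratin filaments to desmosomes, and epcam is an epithelial adhesion protein. The Grainyhead-like factors (grhl) switch on barrier and keratin genes in epidermis, which forms under BMP signalling in ventral ectoderm. These genes therefore bear on how much epithelium, and how much epidermis in particular, an explant holds. In bulk tissue, fewer cells of a type and less RNA per cell cannot be told apart.

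The libraries held between 18189895 and 24108577 reads on genes. The sox8 CRISPR replicate 2 library stood apart, with 17.9% of genes at 0, against 5.99% and 4.59% in controls 1 and 2 (3862 genes, and only 667 in sox8 CRISPR replicate 1). Values differed by over 2-fold between the sox8 CRISPR libraries for 61.1% of genes and between the control libraries for 49.8%. For sox8.L, a copy of the targeted gene, values were 26.9 and 25.4 normalized counts (reads divided by a size factor for each library) in sox8 CRISPR libraries 1 and 2. In controls 1 and 2 they were 508 and 927, a log2 fold change of -4.66 ± 0.97 (SE, limma adjusted p = 0.0436). In the paper, transcripts of sox8.L and sox8.S were both taken for guide design. The homeolog sox8.S had 134 and 0, against 14.1 and 43.7, and the groups overlapped. Of 51 pan and ventrolateral mesoderm genes, limma called 14 lower and 0 higher, where 0.19% of all genes were called lower, and the ventx1, ventx1.2, ventx3.2, szl and bambi homeologs were among the 14. DESeq2 called 21 of the 51 lower and 3 (myod1.L, myf5.S and eomes.S) higher, against 1.02% and 1.31% of all genes with an adjusted p. Of 28 organizer and axial mesoderm genes limma called 8 higher, chrd.1 and foxa4 homeologs among them, and 0 lower, against 0.144% and 0.19% of all genes. DESeq2 called 16 of the 28 higher and 0 lower. The ventral markers named were thus lower in the sox8 CRISPR libraries than in the controls. From its RNA-seq the paper had already reported lower ventx and bmp and higher gsc, not and chrd expression. No library of dorsal tissue was at hand, so how ventral the control tissue was could not be read from this comparison.

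The summed count of the 43 genes was higher in the sox8 CRISPR libraries, led by the cldn6.1, krt18.1, cldn6.2, krt8.1 and cldn7 genes. Of these, cldn6.1.L and krt8.1.L overlapped between the groups. The desmosomal genes, epcam.S and the grhl genes showed no such difference. The summed normalized counts of the 43 genes were 120361 and 120449 in sox8 CRISPR libraries 1 and 2. In controls 1 and 2 they were 64583 and 49204, a ratio of group means of 2.12. Summed over all genes, that ratio was 0.83. The median log2 fold change was 0.72 over the 43 genes and -0.16 over all genes. Without sox8 CRISPR replicate 1 these medians were 0.07 and -0.30, and without sox8 CRISPR replicate 2 they were 1.18 and 0.09, so the members' median moved with the library left out.

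**Figure D1:**
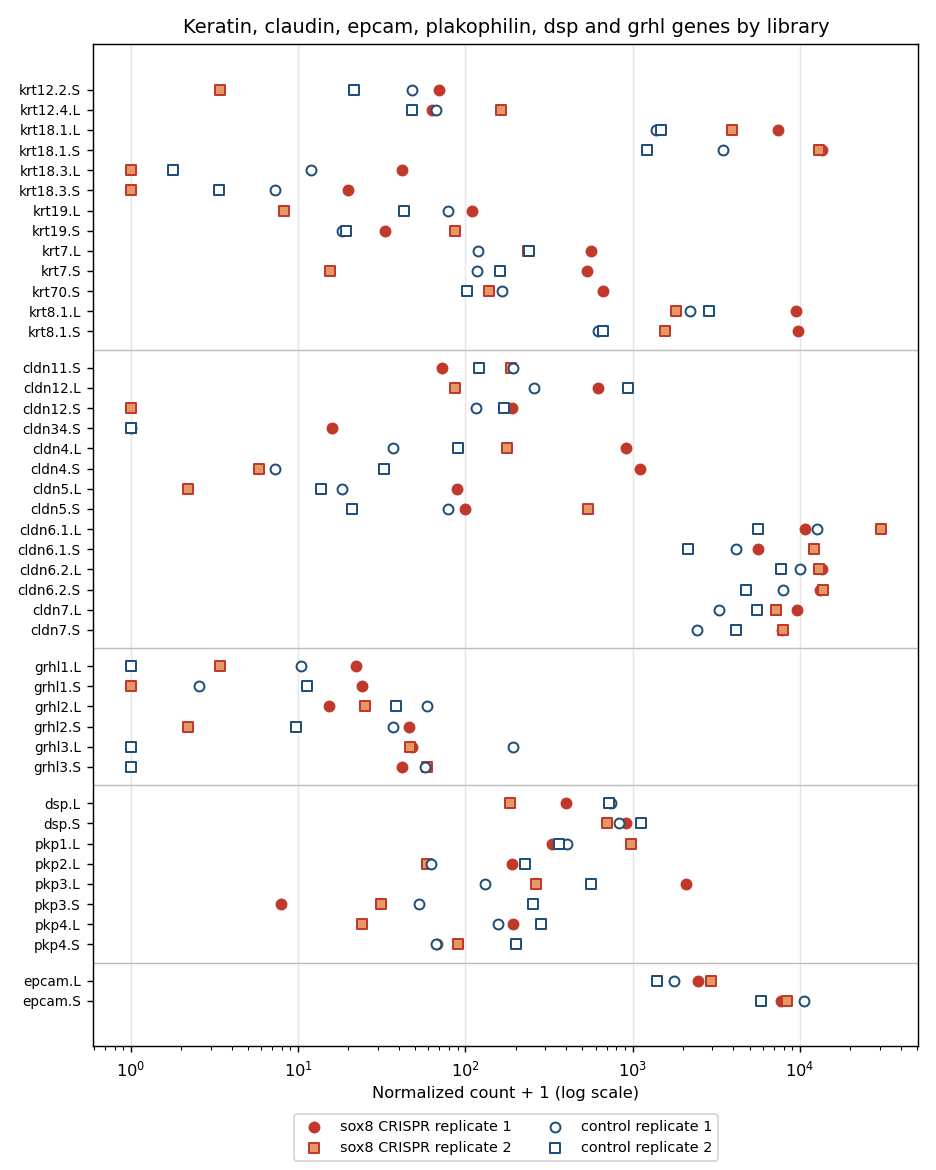
Normalized count + 1 on a log axis for each of the 43 genes in each library, with filled symbols for sox8 CRISPR replicates 1 and 2 and open symbols for control replicates 1 and 2. Lines part the keratins, claudins, grhl genes, dsp and pkp genes, and epcam genes. Both filled symbols lie right of both open ones for 12 genes and left of them for 3.

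No single gene of the 43 passed the test. A gene was called when limma on log2(normalized count + 1) gave a Benjamini-Hochberg adjusted p under 0.05 over all 21531 genes and a log2 fold change beyond 0.58 in either direction. Of the 43, limma called 0 higher and 0 lower, where 0.144% of all genes were called higher and 0.19% lower. At an unadjusted p under 0.05 stood 5 of the 43 (11.6%, against 6.79% of all genes), namely krt18.1.S, krt18.1.L, krt8.1.S, cldn4.L and cldn5.S, all of them higher in sox8 CRISPR. The edgeR quasi-likelihood test on the recovered reads also called 0 of the 43, against 0.506% of all genes. DESeq2 on the same reads called 3 higher (krt18.1.S, krt8.1.S and cldn4.S) and 0 lower among the 38 that it gave an adjusted p, against 1.31% and 1.02% of all genes with one. Both sox8 CRISPR libraries lay above both controls for 12 of the 43 (27.9%, against 17% of all genes) and below both for 3 (6.98%, against 19.1%), and the groups overlapped for 28. Taking sox8 CRISPR replicate 1 alone, 28 genes (65.1%, against 37.9% of all genes) lay above both controls and 5 (11.6%, against 32.2%) below. For replicate 2 alone, 16 (37.2%, against 32.5%) lay above and 18 (41.9%, against 42.7%) below, near the shares of all genes.

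The keratins had the largest ratio between the groups among the gene classes. Those of krt8.1 and krt18.1, with both homeologs of each, summed to 40244 and 20379 normalized counts in sox8 CRISPR libraries 1 and 2, against 7652 and 6208 in controls 1 and 2, a ratio of group means of 4.37. All 13 keratins together summed to 42329 and 21024, against 8278 and 6838, a ratio of 4.19. Both sox8 CRISPR sums exceeded both control sums, and the ratio was 2.78 without sox8 CRISPR replicate 1 and 5.60 without replicate 2. As a share of all reads on genes, the keratins took 0.281% and 0.0944% in the sox8 CRISPR libraries, against 0.0291% and 0.0414% in the controls.

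The type I keratin krt18.1.S had 13643 and 13057 normalized counts in sox8 CRISPR libraries 1 and 2, against 3450 and 1218 in controls 1 and 2. The sox8 CRISPR libraries were close to each other and both were far above the controls. Its log2 fold change was 2.70 ± 0.83 (SE), with a limma adjusted p of 0.322. Among the fits that kept all libraries, the adjusted p ran between 0.0192 (limma, quantile normalization) and 0.999 (limma, replicate block). The gene was called by DESeq2 (adjusted p = 0.0374) and after quantile normalization. It was not called in the other fits of all libraries, of which that without the intensity trend called 0 of all genes. Its homeolog krt18.1.L had 7393 and 3950, against 1380 and 1471, a log2 fold change of 1.92 ± 0.74 (limma adjusted p = 0.604). Again both sox8 CRISPR libraries exceeded both controls, with replicate 1 the higher.

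The type II partner krt8.1 was split between its homeologs. Their sum was 19208 and 3372 normalized counts in sox8 CRISPR libraries 1 and 2, against 2822 and 3519 in controls 1 and 2, and overlapped (limma adjusted p = 0.80). For krt8.1.S the values were 9788 and 1564 in sox8 CRISPR libraries 1 and 2, against 623 and 660 in controls 1 and 2, a log2 fold change of 2.61 ± 0.83 (limma adjusted p = 0.359, DESeq2 adjusted p = 0.0182). For krt8.1.L they were 9420 and 1808, against 2199 and 2859. The L copy was high in sox8 CRISPR replicate 1 only, replicate 2 lay below both controls, and its log2 fold change of 0.72 became -0.47 without replicate 1. Of the reads of the pair, the L copy held 49.0% and 53.6% in the sox8 CRISPR libraries, against 77.9% and 81.3% in the controls, so both sox8 CRISPR shares lay below both control shares. Such a separation of the L shares, in either direction, was common: it was found in 7 of the 16 pairs with reads in every library (43.8%) and in 38.9% of 5339 such pairs of the table, and no test was run on the shares. The keratin pair is also linked in the genome: krt18.1.L lies at chr2L:155934564-155938616 and krt8.1.L starts 66.6 kb on, and on chromosome 2S the gap between krt18.1.S and krt8.1.S is 55.0 kb (v10.1).

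The other 9 keratins did not follow as a group. They summed to 2085 and 645 normalized counts in sox8 CRISPR libraries 1 and 2, against 626 and 630 in controls 1 and 2, so that only replicate 1 stood out. The epidermal keratin krt12.4.L had 62.5 and 163, against 65.6 and 46.9, a log2 fold change of 0.85 ± 1.18 (limma adjusted p = 0.894). Replicate 1 lay between the controls and the groups overlapped. The simple-epithelial keratin krt7.L had 562 and 236, against 119 and 238, and its homeolog krt7.S had 532 and 14.5, against 117 and 160. For krt70.S the values were 661 and 137, against 166 and 102. For krt7.L, krt7.S and krt70.S, sox8 CRISPR replicate 1 was highest and replicate 2 lay among or below the controls. The type I keratin krt19.S, at 31.9 and 85.8 against 17.2 and 18.3, was the only one of the 9 with both sox8 CRISPR libraries above both controls, and krt19.L had 109 and 7.25, against 78.1 and 42.1. The remaining krt12.2.S, krt18.3.L and krt18.3.S lay at 68.1 or below in every library, and both krt18.3 homeologs were at 0 in sox8 CRISPR replicate 2, which allows up to 3.63 normalized counts (3 reads).

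**Figure D2:**
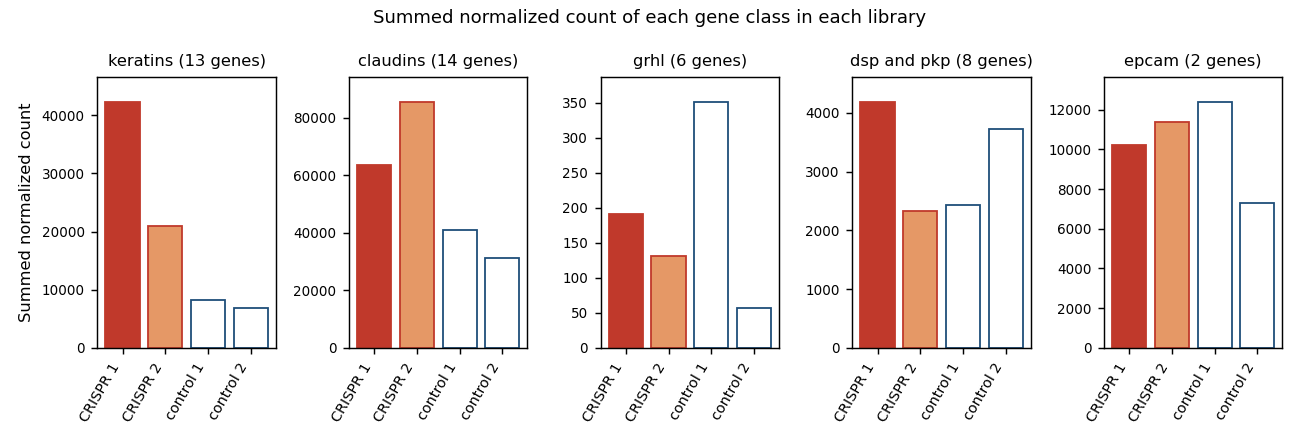
Summed normalized count of each gene class, 1 bar for each library, with the sox8 CRISPR libraries in filled bars left of the control libraries in open bars; each panel has its own axis from 0. Both filled bars stand above both open bars for keratins and claudins, while the grhl, dsp and pkp, and epcam sums overlap between the groups.

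The claudins were the second class that lay higher. Their 14 genes summed to 63446 and 85591 normalized counts in sox8 CRISPR libraries 1 and 2, against 41121 and 31296 in controls 1 and 2, a ratio of group means of 2.06. Of the 14, 7 had both sox8 CRISPR libraries above both controls (50%, against 17% of all genes) and 0 had both below (against 19.1%). Unlike the keratins, the claudin sum was higher in sox8 CRISPR replicate 2 than in replicate 1, and the ratio stayed between 1.75 and 2.38 with any one library left out. That order came from the cldn6 group. The 10 claudins other than cldn6.1 and cldn6.2 summed to 20532 and 16216, against 6395 and 11106, with replicate 1 the higher.

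Claudins of the cldn6 group, found on early embryonic cells, held most of those reads. The 4 genes together had 42914 and 69375 normalized counts in sox8 CRISPR libraries 1 and 2, against 34726 and 20189 in controls 1 and 2. The tandem pair cldn6.2 and cldn6.1 lies on 9_10L, 5.82 kb apart, and on 9_10S, 7.76 kb apart. For cldn6.2.S the values were 13147 and 13760, against 7894 and 4741, a log2 fold change of 1.14 ± 0.89. For cldn6.2.L they were 13482 and 13006, against 10004 and 7679, a log2 fold change of 0.60 ± 0.91. Both copies of cldn6.2 agreed closely between the sox8 CRISPR libraries and lay above both controls, by less than the limma test could tell from the spread (adjusted p = 0.849 and 0.903). The neighbour cldn6.1.S had 5613 and 12074, against 4174 and 2148 (1.46 ± 0.82 on the log2 scale, adjusted p = 0.791), and cldn6.1.L had 10672 and 30535, against 12654 and 5622 (adjusted p = 0.864). In both cldn6.1 copies replicate 2 was the highest library, and for the L copy the groups overlapped.

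The barrier claudin cldn7 was higher from both subgenomes. For cldn7.S the values were 7782 and 7977 normalized counts in sox8 CRISPR libraries 1 and 2, against 2413 and 4176 in controls 1 and 2, a log2 fold change of 1.31 ± 0.80 (limma adjusted p = 0.807). For cldn7.L they were 9654 and 7242, against 3284 and 5552, a log2 fold change of 0.97 ± 0.82 (adjusted p = 0.859). No sox8 CRISPR library overlapped a control for either copy.

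Values that depended on the library were seen for cldn4, a barrier claudin, and cldn5, the endothelial claudin of vertebrates. The values of cldn4.L were 911 and 175 normalized counts in sox8 CRISPR libraries 1 and 2, against 35.9 and 89.0 in controls 1 and 2, a log2 fold change of 2.80 ± 1.03 (limma adjusted p = 0.557). Those of cldn4.S were 1101 and 4.83, against 6.25 and 31.8. The S copy thus rested on a single library: DESeq2 called it (adjusted p = 0.0372), limma did not (adjusted p = 0.857), and its log2 fold change of 2.38 was -1.40 without sox8 CRISPR replicate 1. Conversely cldn5.S, at 98.1 and 543 against 78.1 and 19.9, was highest in replicate 2 (2.51 ± 1.19, limma adjusted p = 0.729), while cldn5.L had 88.1 and 1.21, against 17.2 and 12.7, and overlapped (-0.17 ± 2.04, adjusted p = 0.990). The remaining claudins did not lie higher: cldn12.L had 621 and 85.8, against 255 and 936, cldn12.S had 189 and 0, against 114 and 169, and cldn11.S had 71.8 and 187, against 192 and 119. The single gene cldn34.S was read in sox8 CRISPR replicate 1 alone, at 15.0, and entered the table through that library.

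**Figure D3:**
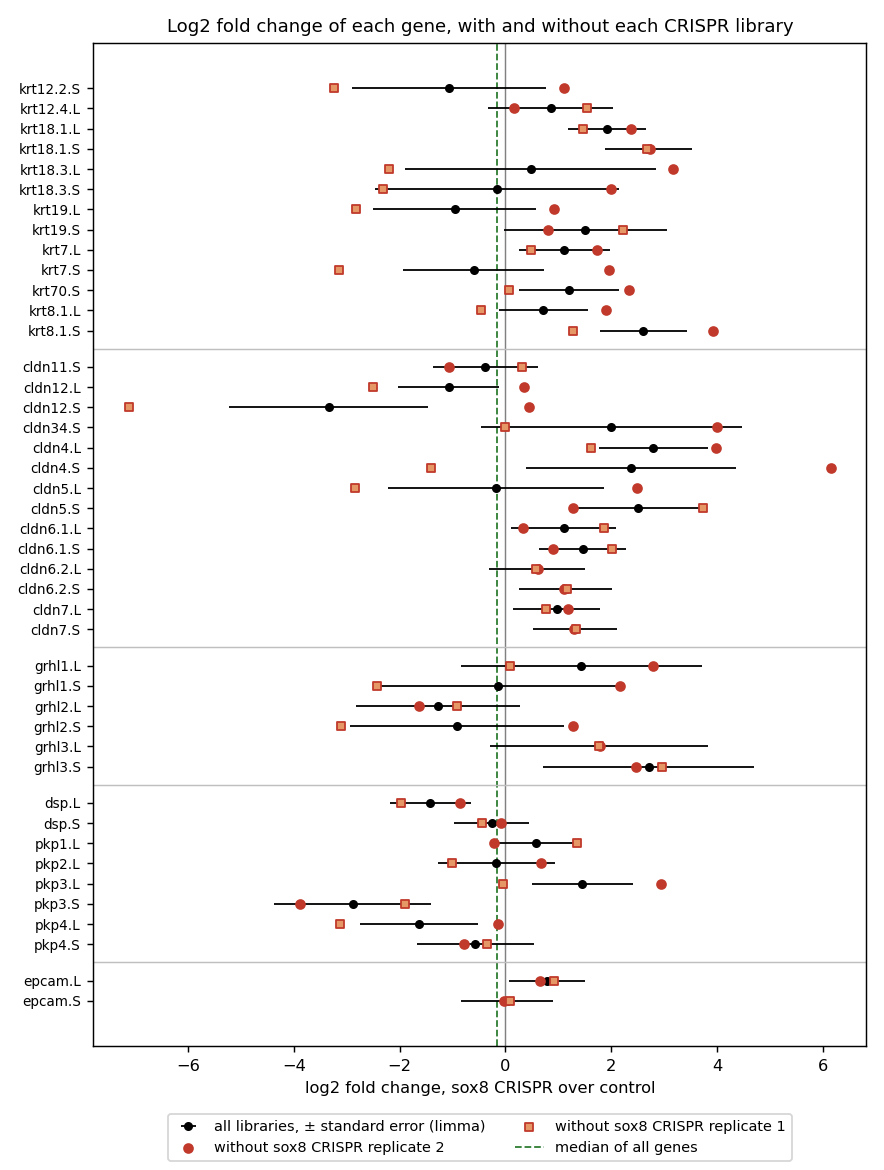
Log2 fold change (sox8 CRISPR over control) of each gene, as black points with the limma standard error for all libraries and as coloured symbols without sox8 CRISPR replicate 2 (circles) or replicate 1 (squares); the dashed line is the median of all genes at -0.16. The krt18.1, cldn6 and cldn7 genes stay above 0 either way, while krt8.1.L, cldn4.S and pkp3.L lie below 0 once replicate 1 is left out.

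Desmosomal plaque genes did not share the difference. Their 8 genes summed to 4186 and 2335 normalized counts in sox8 CRISPR libraries 1 and 2, against 2433 and 3730 in controls 1 and 2, a ratio of group means of 1.06, whereas their median log2 fold change was -0.42, and 0.09 without control replicate 2. Desmoplakin dsp.L had 401 and 185, against 739 and 721, a log2 fold change of -1.42 ± 0.76 (limma adjusted p = 0.769). Both sox8 CRISPR libraries lay below both controls. Its homeolog dsp.S had 909 and 706, against 825 and 1122, and overlapped. The plakophilin pkp3 went opposite ways in its copies. For pkp3.S the values were 6.87 and 30.2, against 51.5 and 254 (-2.89 ± 1.48, limma adjusted p = 0.764), and for pkp3.L they were 2094 and 263, against 130 and 564 (1.45 ± 0.96, adjusted p = 0.820). The S copy was low in both sox8 CRISPR libraries, whereas the L copy was high in replicate 1 only. The plakophilin pkp1.L had 330 and 980, against 406 and 361, with replicate 2 as the high library. The other genes, pkp2.L, pkp4.L and pkp4.S, ranged between 23.0 and 281 and overlapped between the groups.

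The adhesion gene epcam did not separate the groups as a pair. For epcam.S the values were 7739 and 8413 normalized counts in sox8 CRISPR libraries 1 and 2, against 10641 and 5888 in controls 1 and 2, a log2 fold change of 0.03 ± 0.87 (limma adjusted p = 0.995). For epcam.L they were 2469 and 2954, against 1758 and 1395, a log2 fold change of 0.79 ± 0.71 (adjusted p = 0.864). The S copy overlapped and the L copy did not. Epcam was the only class in which no gene differed by over 2-fold between libraries of 1 group.

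Few reads were found on the grhl factors in any library. The 6 grhl genes summed to 191 and 132 normalized counts in sox8 CRISPR libraries 1 and 2, against 351 and 56.4 in controls 1 and 2. The control libraries lay on both sides of the sox8 CRISPR libraries, so no direction could be read. The barrier factor grhl3.L had 46.8 and 45.9, against 191 and 0, and grhl3.S had 40.6 and 58.0, against 56.2 and 0. Their log2 fold changes of 1.78 ± 2.06 and 2.71 ± 1.99 (limma adjusted p = 0.885 and 0.834) rested on the 0 in control replicate 2, and were -2.01 and -0.21 without it. For grhl2.L, a regulator of epithelial junction genes, the values were 14.4 and 24.2, against 57.8 and 37.4 (-1.27 ± 1.55, adjusted p = 0.888), with both sox8 CRISPR libraries the lower. For grhl2.S they were 45.0 and 1.21, against 35.9 and 8.74, and overlapped. Neither grhl1 copy passed 23.1 in any library.

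Homeologs of a pair had log2 fold changes of the same sign in 12 of the 18 pairs and of opposite signs in 6 (33.3%, against 36.3% of the 5640 pairs of the table). Both copies lay above both controls in 3 pairs (krt18.1, cldn6.2 and cldn7; 16.7%, against 5.35% of all pairs) and below in 0 (against 7.94%). After the copies were summed, 5 pairs lay above (those 3 with cldn4 and cldn5; 27.8%, against 19% of all pairs) and 1 below (dsp; 5.56%, against 18.4%), and limma called 0 of the 18 (lowest adjusted p 0.380). The largest summed shift among the keratins was that of krt18.1, with 21036 and 17007 normalized counts in sox8 CRISPR libraries 1 and 2, against 4830 and 2689 in controls 1 and 2 (2.39 ± 0.80 on the log2 scale).

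**Figure D4:**
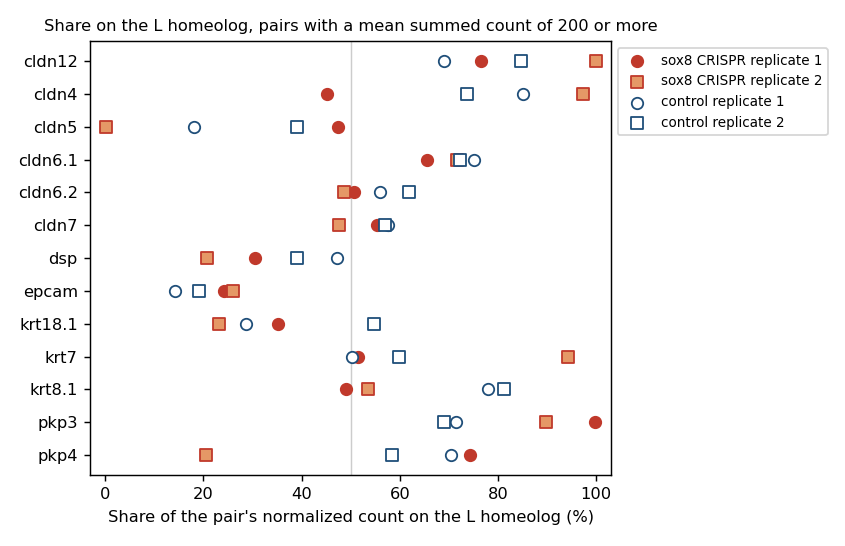
Share of a homeolog pair's normalized count that is on the L copy, in percent, for the 13 pairs with a mean summed count of 200 or more; filled symbols are sox8 CRISPR libraries and open symbols controls. For krt8.1 the shares of 49.0% and 53.6% in sox8 CRISPR lie left of 77.9% and 81.3% in controls, and for pkp3 those of 99.7% and 89.7% lie right of 71.6% and 68.9%; the L shares of the groups do not overlap in 7 of 16 pairs with reads in every library, against 38.9% of all such pairs.

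Other genes of the epidermal programme, a list of 32 non-neural ectoderm regulators, did not move as one. In both sox8 CRISPR libraries 8 lay above both controls (25%, against 17% of all genes) and 11 lay below (34.4%, against 19.1%). They summed to 1622 and 1650 normalized counts in sox8 CRISPR libraries 1 and 2, against 3084 and 5967 in controls 1 and 2, with a median log2 fold change of -1.36, which was 0.38 without sox8 CRISPR replicate 2. The lower sum rested on gata2.L, gata2.S, dlx3.S and dlx5.S. Without these 4 genes, a choice made after their values were seen, the sums were 1588 and 1640, against 1306 and 1769, and overlapped. Of the 32, limma called 2 lower and 0 higher, against 0.19% and 0.144% of all genes. The 2 were gata2.L, at 6.87 and 0 against 361 and 1751 (-8.15 ± 1.49, limma adjusted p = 0.0177), and gata2.S, at 0 in both sox8 CRISPR libraries against 459 and 1794 (limma adjusted p = 0.00653). The factor gata2 acts in ventral mesoderm and blood as well as in epidermis. DESeq2 called 6 of the 32 lower, adding dlx3.S, dlx5.S, gata3.L and klf17.L, and 0 higher, against 1.02% and 1.31% of all genes with an adjusted p. The ventral ectoderm factor dlx3.S had 11.2 and 0, against 439 and 360 (limma adjusted p = 0.0824), and dlx5.S had 15.6 and 9.67, against 520 and 293 (adjusted p = 0.108). Of their homeologs, dlx3.L had 13.1 and 0, against 1.56 and 2.38, and overlapped. The other, dlx5.L, had 8.74 and 27.8, against 64.0 and 101. Among the 8 that lay above was tfap2a.S, an early regulator of epidermis and neural crest, at 195 and 160 against 79.6 and 15.9 (adjusted p = 0.768). Its homeolog tfap2a.L had 129 and 100, against 120 and 85.8, and overlapped.

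Of 36 other junction and desmosome genes, limma, edgeR and DESeq2 each called 0. At an unadjusted limma p under 0.05 stood 0 of the 36, against 6.79% of all genes. Their sums were 47977 and 31680 normalized counts in sox8 CRISPR libraries 1 and 2, against 23098 and 36206 in controls 1 and 2, and their median log2 fold change was 0.04. The epithelial cadherin cdh1.S had 693 and 358, against 408 and 556, and overlapped. Of 17 genes of epidermal cell types (ciliated, ionocyte, goblet and small secretory cells), 13 were at 0 in sox8 CRISPR replicate 2, where 17.9% of all genes were at 0. In controls 1 and 2, 5 and 7 of the 17 were at 0. Some, such as ubp1.L and tnfrsf19.L, were read in sox8 CRISPR replicate 1 alone and entered the table through it. Above both controls lay 14 in replicate 1 (82.4%, against 37.9% of all genes) and 1 in replicate 2 (5.88%, against 32.5%). Below both lay 0 in replicate 1 and 7 in replicate 2 (41.2%, against 42.7%). The sums of the 17 genes, 3231 and 631 against 778 and 1583, overlapped. Limma called 0 of the 17, with 1 at an unadjusted p under 0.05 (5.88%, against 6.79% of all genes). That gene was foxj1.S, the regulator of motile cilia, which also marks the gastrula's dorsal lip cells, at 928 and 326 against 1.56 and 15.9 (limma adjusted p = 0.0506), called higher by edgeR and DESeq2. Its homeolog foxj1.L had 694 and 0, against 7.81 and 0.795, and overlapped.

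Of the marker lists of other tissues, that of the organizer and axial mesoderm had the largest ratio of group means, 6.97. Its 28 genes summed to 90731 and 16063 normalized counts in sox8 CRISPR libraries 1 and 2, against 9364 and 5962 in controls 1 and 2. For 17 of them both sox8 CRISPR libraries lay above both controls (60.7%, against 17% of all genes). In neither control was a read found on chrd.2.L, chrd.1.L or either shh copy. The 23 endoderm genes summed to 68660 and 79380, against 34951 and 55825, but 15 of the 23 had a log2 fold change below 0, and the list's median was -0.76. Below both controls lay 7 (30.4%, against 19.1% of all genes) and above both lay 3 (13.0%, against 17%). Without vegt.L and vegt.S, left out after their values were seen, the endoderm sums were 7925 and 7690, against 10237 and 8559. Of the 23, limma called 0, with 6 at an unadjusted p under 0.05 (26.1%, against 6.79% of all genes). DESeq2 called 1 in each direction, against 1.31% higher and 1.02% lower of all genes with an adjusted p. By edgeR 1 was called higher, against 0.506% of all genes in either direction. The 29 neural plate genes summed to 38748 and 77603, against 50618 and 16871, and overlapped. The largest part of each sum was gmnn.S, at 10432 and 46465, against 24638 and 7651. Above both controls lay 13 (44.8%, against 17% of all genes) and below both lay 6 (20.7%, against 19.1%). At an unadjusted limma p under 0.05 stood 11 (37.9%, against 6.79%). Limma called 4 higher (zic2.S, foxd4l1.1.L, foxd4l1.1.S and foxd4l1.2.L) and 0 lower, against 0.144% and 0.19% of all genes. DESeq2 called 6 higher and 1 lower, against 1.31% and 1.02% of all genes with an adjusted p. The 24 neural crest and border genes summed to 6817 and 5712, against 4399 and 8098, and overlapped. Above both controls lay 9 (37.5%, against 17% of all genes) and below both lay 6 (25%, against 19.1%). Limma called 0 of the 24, with 9 at an unadjusted p under 0.05 (37.5%, against 6.79% of all genes). DESeq2 called 4 higher and 3 lower, against 1.31% and 1.02% of all genes with an adjusted p. By edgeR 1 was called higher and 2 lower, against 0.506% of all genes in either direction. The part of these tissues in the keratin and claudin differences was not tested. How much ectoderm each explant held was therefore not given by a single value. The epidermal keratin krt12.4.L, epcam.S and the summed grhl genes overlapped between the groups. Of the 43 genes, 12 lay above the range of the controls in each sox8 CRISPR library, krt8.1.S, krt18.1, cldn6.2, cldn7 and epcam.L among them. Below it in each sox8 CRISPR library lay 3, namely dsp.L, pkp3.S and grhl2.L. Of the 32 non-neural ectoderm regulators, 8 lay above that range, tfap2a.S and both znf750 copies among them. Another 11 lay below it, dlx3.S, dlx5.S and gata2 among them. For the 29 neural plate genes, also ectoderm, these counts were 13 above and 6 below.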

How the data were processed

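Smart-seq2 libraries were made from dissected ventral tissue, 2 sox8 CRISPR and 2 control. The authors trimmed reads with cutadapt 4.4, aligned them with HISAT2 2.2.1 to X. laevis v10.1, counted them with featureCounts 2.0.6 and left out genes with a mean under 5 reads; strand use and the handling of reads shared between homeologs are not given in the sources used here, so values of near-identical L and S copies are uncertain. The deposited values are a signal, read counts divided by the authors' DESeq2 size factors. They came out as whole reads for 100% of values (tolerance 0.01). One read was worth between 0.625 and 1.56 normalized counts. No transcript lengths were at hand, so levels are not compared between genes.

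The main test was limma 3.58.1 (R 4.3.3; two-sided, eBayes moderation with an intensity trend) of log2(normalized count + 1), since the values are not counts; folds of low genes are understated by the pseudocount. P-values were adjusted over 21531 genes. An exact permutation test of 2 against 2 libraries cannot go below 0.333. edgeR 4.0.16 and DESeq2 1.42.0 on the recovered reads, other pseudocounts, filters and scalings, a replicate block and leaving out each library were alternatives. The genes described in full were, in each class, the up to 4 with the highest mean, and all genes called by any tool. Added to these were the 5 largest rises and the falls among genes with a mean of 50 or more and no overlap between groups. Only 2 falls met those limits. Each gene was described with its homeolog. The 8 marker lists share some genes. Members and lists were chosen with earlier results of these data known. Gene positions are those of RefSeq on v10.1. Counting limits (3 reads for a 0) cover counting error only.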

Additional observations from a re-analysis of the deposited data

How the results depend on the processing

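No member was called higher or lower by limma with a pseudocount of 0.5 or 5, a mean of at least 50, TMM scaling, no intensity trend or summed homeologs. Quantile normalization called 1 higher and DESeq2 3; by the fold threshold alone 23 lay higher and 10 lower. With any 1 library left out 0 of the members and 0 of all genes were called, so these fits do not bear on stability. Without the intensity trend limma likewise called 0 genes in all. Over all genes, 31 were called higher and 41 lower, against 82 and 71 with a pseudocount of 5, 114 and 85 with quantile normalization, 58 and 51 with edgeR, 238 and 185 with DESeq2, and 6392 and 8101 by fold alone. Over all genes the log2 fold change had a median of -0.16, -0.02 after quantile normalization, 0.07 with edgeR and 0.01 with DESeq2; relative to it the members' median was 0.87, 0.99, 0.96 and 0.97 higher.

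Replicate numbers are shared by the groups, but nothing says that they pair the libraries: same-numbered libraries had deviations correlated at -0.22 across 21531 genes. With the replicate block 0 members were called higher and 0 lower, and 42 and 44 of all genes.

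Of 234 log2 fold changes of the 25 named members under alternatives with all libraries, 11 changed sign. For cldn5.L (-0.17) the value was 0.28 with a pseudocount of 5, 1.14 with quantile normalization, 1.70 with edgeR, 1.59 with DESeq2 and 2.49 with homeologs summed. For grhl2.S (-0.91) it was 0.23 with quantile normalization, 0.20 with edgeR and 0.064 with DESeq2; for grhl3.L (1.78), -0.93 with edgeR and -1.03 with DESeq2; for epcam.S (0.03), -0.033 with DESeq2. With 1 library left out, 16 members kept their sign. The values ran between -1.40 and 6.16 for cldn4.S, -2.84 and 2.50 for cldn5.L, -0.40 and 0.45 for epcam.S, -3.10 and 1.28 for grhl2.S, -2.01 and 5.57 for grhl3.L, -0.21 and 5.63 for grhl3.S, -0.47 and 1.91 for krt8.1.L, -0.21 and 1.35 for pkp1.L, and -0.039 and 2.95 for pkp3.L. The keratin ratio ran between 2.78 and 5.60 and was 4.42 with TMM, 5.32 as a share of reads and 3.51 without the most abundant keratin. The grhl ratio of 0.79 was 1.18 as a share of reads. The cause was not tested for any of these. The counts of members above and below both controls with 1 sox8 CRISPR library left out, and the marker sums without named genes, were added after seeing the data. With 2 libraries a group, the members' standard errors of 0.70 to 2.47 on the log2 scale limit which differences could be told from the spread.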
